A study of Mus musculus with 22 samples.

Results

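A pair of mouse epiblast stem cell (mEpiSC) lines, 129/MSM and Oct4GIP, was compared in matched states by RNA-seq. For each line, 3 libraries were taken by their labelled state and treatment, so that 6 of the 22 libraries of the series entered: primed mEpiSCs, cells reverted with AICAR and cells reverted with AICAR+LIF, the last 2 after 16 days of treatment and 10 passages (d16+10p). Each 129/MSM library was paired with the Oct4GIP library of the same state and treatment, and results are given for autosomal genes, which were 32290 of the 34489 genes counted. The study asked whether AMPK activators return primed cells to the naive state, and 129/MSM served there as an additional line besides Oct4GIP. 129/MSM cells came from F1 embryos of a female 129X1/SvJ and a male MSM/Ms mouse, a strain derived from Japanese wild mice, and are XY. Oct4GIP cells are of the 129/Ola strain, are XX and carry a transgene in which the Oct4 promoter and enhancer drive eGFP and puromycin resistance. Primed 129/MSM cells were kept on mouse embryonic fibroblast feeders with serum replacement, and primed Oct4GIP cells on fibronectin in a serum-free medium, with FGF2 and Activin A in both. Both lines were then treated in the same Basal medium with AICAR, an activator of AMPK, with or without LIF, and expanded in 2iL, a medium with LIF and inhibitors of MEK and GSK3. Each line is 1 line, and no condition had a replicate library. Strain, sex, transgene and primed culture differ together between the lines and cannot be told apart.

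Naive and primed cells stand for the pluripotent epiblast before and after implantation. Naive cells rely on LIF-STAT3 signalling and on factors such as Klf4, Tbx3 and Esrrb, whereas primed cells depend on FGF and Activin signalling, express Fgf5, Otx2 and Dnmt3b and carry highly methylated DNA. Primed lines are known to differ in how far they resemble the anterior epiblast or the primitive streak, where mesoderm and endoderm arise. Total counts were 2965743, 2451570 and 2534927 in primed, AICAR reverted and AICAR+LIF reverted 129/MSM cells, and 2584715, 1689495 and 3216191 in the Oct4GIP libraries of the same order, which is kept below. Levels are in CPM, counts scaled to the library total with TMM factors. The level of 3 counts, used as the floor, lay between 0.973 and 1.78 CPM and covers counting error only. As a check of the line labels, the Y-linked gene Ddx3y had 379, 252 and 237 counts in 129/MSM and 0 in each Oct4GIP library. Kdm5d, also Y-linked, had 168, 36 and 47 counts in 129/MSM and 5, 13 and 22 in Oct4GIP. Xist, the transcript of the silenced X chromosome, had 1640, 3 and 2 counts in Oct4GIP and 65, 1 and 2 in 129/MSM libraries, so that it was above the floor in both primed libraries.

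Most genes called in 1 state were not called in the other, which by itself does not show a difference between states. P2rx7, Mgarp and Plce1 were higher and Etv4, Tuba3a and Myof lower in reverted 129/MSM cells with either treatment, whereas Lhx1, Sox17 and Eomes were higher in primed 129/MSM cells and near the same low levels in both lines after reversion. Among 14785 autosomal genes tested with edgeR, 942 (6.37%) differed between the lines in reverted cells (2 libraries per line) at an adjusted p under 0.05, 487 (3.29%) higher and 455 (3.08%) lower in 129/MSM. DESeq2 called 395 in these libraries, and counts thinned to the smallest library, which left 13866 genes tested, gave 338. In primed cells 1819 (12.3%) differed, 1090 (7.37%) higher and 729 (4.93%) lower in 129/MSM, with 1 library per line, whose spread was taken from the reverted libraries. The primed count was 527 in a fit of all 22 libraries, which changed both the spread and the genes tested (17686 in place of 14785), 604 with DESeq2 and 763 with counts thinned to the smallest library. List members called in primed cells were 137 of 404, beside 12.3% of all genes, 39 in the fit of all 22 libraries and 64 with DESeq2. The reverted and primed lists of edgeR shared 249 genes, 158 with the same and 91 with the opposite direction. They were 26.4% of the genes called in reverted cells, beside 12.3% of all genes called in primed cells. They were 13.7% of the genes called in primed cells, beside 6.37% of all genes called in reverted cells. Both shares were thus above those of all genes. Only 27 genes (0.183%) passed the test of a line difference over the 3 pairs, 20 higher (0.135%) and 7 lower (0.0473%). Across genes, which are not independent replicates, the line difference in AICAR reverted cells correlated with that in AICAR+LIF reverted cells (Pearson's r = 0.519, Spearman's rho = 0.425, 14785 genes), and hardly with that in primed cells (r = 0.0881, rho = 0.0905). For AICAR+LIF and primed cells r was 0.0649 and rho 0.0430. These pairs share no library.

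**Figure D1:**
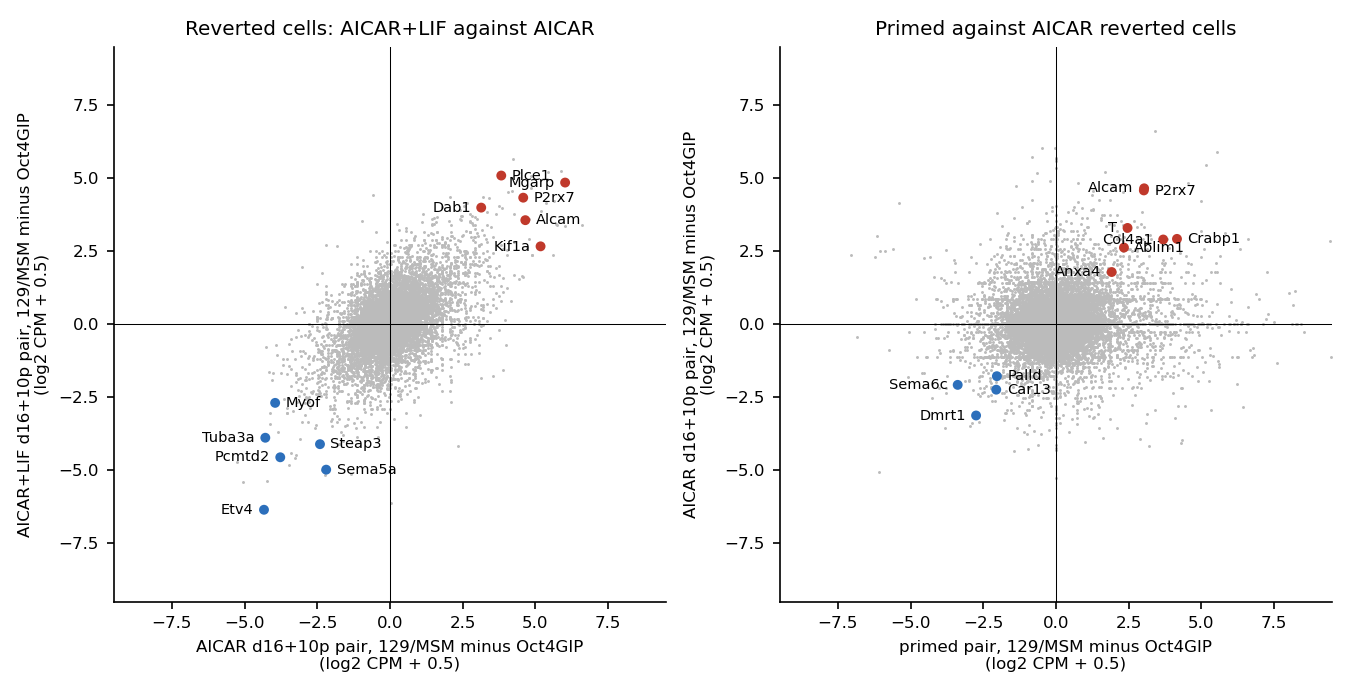
Line difference of each autosomal gene tested (129/MSM minus Oct4GIP, log2 of CPM + 0.5), AICAR+LIF reverted against AICAR reverted cells on the left and AICAR reverted against primed cells on the right. Grey points are genes, red and blue points the named genes higher and lower in 129/MSM in reverted cells (left) and over the 3 pairs (right); the cloud is elongated on the left (r = 0.519) and round on the right (r = 0.0881).

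A few genes differed between the lines in all 3 pairs whatever the state. By the naming rule, 7 genes with the same direction in each pair were higher and 4 lower in 129/MSM. Log2 differences of the test are given with an SE, which is their absolute value divided by the square root of the F statistic. P2rx7 (ENSMUSG00000029468, chromosome 5, 122643911 to 122691432 of GRCm38), an ATP-gated cation channel, had 3.57, 111 and 75.3 CPM in 129/MSM cells and 0, 4.15 and 3.24 CPM in Oct4GIP cells. It was thus abundant in reverted 129/MSM cells alone, and low in both primed libraries (log2 difference 4.66 ± 0.38, edgeR adjusted p = 0.012). Alcam, an adhesion molecule of the immunoglobulin superfamily, had 34.7, 27.1 and 28.5 CPM in 129/MSM cells and 3.8, 0.593 and 1.95 CPM in Oct4GIP cells, and no 129/MSM library overlapped the Oct4GIP ones (log2 difference 3.83 ± 0.47, edgeR adjusted p = 0.0382). Crabp1, which binds retinoic acid in the cytoplasm, had 111, 12.3 and 13.9 CPM in 129/MSM cells and 5.70, 1.19 and 1.95 CPM in Oct4GIP cells. This difference was widest in primed cells (log2 difference 3.63 ± 0.42, edgeR adjusted p = 0.0318). Col4a1, a chain of basement membrane collagen IV, had 374, 25.5 and 19 CPM in 129/MSM cells and 28.5, 2.97 and 1.95 CPM in Oct4GIP cells (log2 difference 3.47 ± 0.27, edgeR adjusted p = 0.012). Its neighbour Col4a2, which shares a bidirectional promoter with it and was named after its values were seen, also passed (edgeR adjusted p = 0.02). The primitive streak factor T (Brachyury) had 25.3, 33.7 and 18.2 CPM in 129/MSM cells and 4.18, 2.97 and 1.95 CPM in Oct4GIP cells (log2 difference 3.05 ± 0.40, edgeR adjusted p = 0.0479). T was above the floor in all 3 129/MSM libraries and in all 3 Oct4GIP libraries.

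Ablim1 and Anxa4, an actin-binding LIM protein and a membrane-binding annexin, had steady differences. Ablim1 had 86.7, 241 and 188 CPM in 129/MSM cells and 16.7, 38.6 and 32.1 CPM in Oct4GIP cells (log2 difference 2.52 ± 0.21, edgeR adjusted p = 0.012). Anxa4 had 78.9, 79.3 and 77.2 CPM in 129/MSM cells and 20.5, 22.5 and 21.4 CPM in Oct4GIP cells (log2 difference 1.87 ± 0.22, edgeR adjusted p = 0.0344), with nearly equal levels in the 3 libraries of each line. Of the genes lower in 129/MSM, Dmrt1, a transcription factor of germ cells and the testis, had 0.649, 6.99 and 5.94 CPM in 129/MSM cells and 7.21, 64.7 and 34.7 CPM in Oct4GIP cells (log2 difference −2.96 ± 0.36, edgeR adjusted p = 0.0384). Sema6c, a transmembrane semaphorin on chromosome 3, had 17.2, 8.22 and 14.7 CPM in 129/MSM cells and 184, 36.2 and 113 CPM in Oct4GIP cells (log2 difference −2.89 ± 0.30, edgeR adjusted p = 0.0247) and lies in the block of that chromosome with many genes lower in 129/MSM. The carbonic anhydrase gene Car13 had 5.84, 9.04 and 10.7 CPM in 129/MSM cells and 25.8, 44.5 and 45.7 CPM in Oct4GIP cells (log2 difference −2.17 ± 0.28, edgeR adjusted p = 0.0489). Palld, whose product palladin organises actin filaments, had 123, 24.3 and 30.9 CPM in 129/MSM cells and 506, 84.3 and 86.9 CPM in Oct4GIP cells (log2 difference −1.78 ± 0.21, edgeR adjusted p = 0.0344). For Dmrt1, Sema6c and Car13 every Oct4GIP library lay above all 129/MSM libraries, while for Palld the primed 129/MSM library lay above the reverted Oct4GIP ones. Some calls rested on 1 pair: Cer1, Cyp26a1 and Mmp3, the last 2 named after their values were seen, passed with 768, 273 and 139 CPM in primed 129/MSM cells and at most 1 count in every other library. Of the 404 tested genes on any list, 3 passed over the pairs, T and Cer1 higher and Tuba3a lower in 129/MSM, where 0.183% of all genes passed.

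The count of 27 changed when pairs were left out, which also changed the genes tested. Without the primed pair 972 of 12289 genes passed, and without the AICAR+LIF pair 71 of 14457. With the pairs ignored none passed in edgeR, where the filter by line also left fewer genes, 12292 in place of 14785, and 674 genes had an unadjusted p under 0.05. DESeq2 called 195 genes, 108 higher and 87 lower in 129/MSM, a more even split. For a single value, an exact paired permutation test over 3 pairs cannot give a two-sided p below 0.25.

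**Figure D2:**
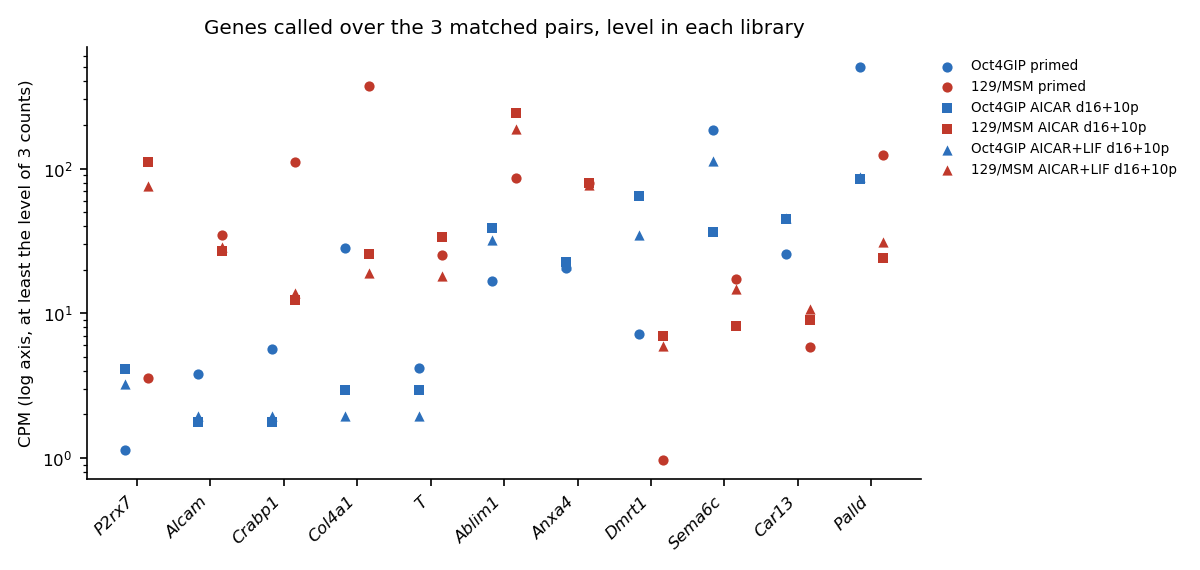
Level in each of the 6 libraries (CPM, log axis, values under the level of 3 counts drawn at it) of the 11 named genes that passed the test over the 3 pairs. Red symbols are 129/MSM and blue ones Oct4GIP, circles primed, squares AICAR and triangles AICAR+LIF reverted cells; the 7 genes on the left are higher and the 4 on the right lower in 129/MSM.

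Core pluripotency factors that differed between reverted cells were all higher in 129/MSM. Pou5f1 (Oct4), a core pluripotency factor, had 918 and 883 CPM in 129/MSM and 738 and 851 CPM in Oct4GIP cells, and Nanog had 779 and 733 against 500.2 and 783 CPM in the same order. Neither passed the test, and for Nanog the lines overlapped (adjusted p = 0.488 and 0.554 with edgeR). Of 15 core factors tested, 5 were higher in 129/MSM, 0 lower and 10 not called, where 3.29% of all genes were higher, with a median log2 difference of 0.33 beside 0.00 over all genes. The higher ones were Utf1, Dppa4, Zfp281, Tdgf1 and L1td1. Utf1, a chromatin-bound factor of pluripotent cells, had 31.6 and 38.8 CPM in 129/MSM and 5.93 and 7.46 CPM in Oct4GIP cells (log2 difference 2.35 ± 0.26, edgeR adjusted p = 0.00147). L1td1, an RNA-binding protein, had 354 and 385 against 183 and 183 CPM (log2 difference 1.01 ± 0.14, edgeR adjusted p = 0.00477). Dppa4, absent from both primed libraries at 0 counts, had 76.5 and 71.3 against 36.8 and 26.9 CPM (log2 difference 1.24 ± 0.23, edgeR adjusted p = 0.015). For Tdgf1 (Cripto), the co-receptor of Nodal, levels were 580.4 and 485 against 251 and 217 CPM (log2 difference 1.19 ± 0.15, edgeR adjusted p = 0.00326). In all 4 genes both 129/MSM libraries lay above both Oct4GIP libraries.

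Of 23 regulators of the naive state tested, 3 were higher, 1 lower and 19 not called in reverted 129/MSM cells (median 0.23), beside 3.29% higher and 3.08% lower over all genes. Klf4, a target of LIF signalling, had 287 and 207 CPM in 129/MSM and 109 and 140.1 CPM in Oct4GIP cells (log2 difference 0.98 ± 0.20, edgeR adjusted p = 0.0227). Zfp57, which keeps imprints methylated, had 466 and 429 against 228 and 285 CPM (log2 difference 0.80 ± 0.16, edgeR adjusted p = 0.0186), and the DNA demethylation enzyme Tet2 356 and 263 against 151 and 174 CPM (log2 difference 0.92 ± 0.18, edgeR adjusted p = 0.0188). Dppa3 (Stella; ENSMUSG00000046323, chromosome 6, 122626410 to 122630272), which keeps the methylation factor Uhrf1 from chromatin, was the exception. Its levels were 23.4 and 31.7 CPM in 129/MSM and 132 and 127 CPM in Oct4GIP cells (log2 difference −2.23 ± 0.21, edgeR adjusted p = 0.000713), so that reverted Oct4GIP cells were far above both 129/MSM libraries. The naive mESC library of the series had 47.8 CPM of Dppa3. Of the genes the study names, 16 autosomal ones were tested, a list chosen on these samples and therefore no independent evidence of a direction. Of them 2 were higher in reverted 129/MSM cells, Klf4 and T, and 0 lower. In primed cells 3 were higher (Eomes, Foxa2 and T) and 2 lower (Pou5f1 and Nanog), beside 7.37% and 4.93% of all genes. The medians of that list were 0.19 and 0.00.

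Named genes with wide differences between reverted cells included Mgarp, Kif1a and Plce1, higher in 129/MSM, and Etv4 and Pcmtd2, lower in 129/MSM. Mgarp (ENSMUSG00000037161, chromosome 3, 51388412 to 51396738), a mitochondrial protein, had 148 and 127 CPM in 129/MSM and 1.78 and 3.89 CPM in Oct4GIP cells (log2 difference 5.45 ± 0.30, edgeR adjusted p = 5.23e-05). Reverted 129/MSM cells also exceeded their own primed source, which had 10.7 CPM of Mgarp. Plce1, a phospholipase C regulated by Ras, had 65.8 and 61 against 4.15 and 1.30 CPM (log2 difference 4.72 ± 0.40, edgeR adjusted p = 0.000456). P2rx7 and Alcam, described above, had log2 differences of 4.68 ± 0.34 and 4.22 ± 0.44. Kif1a, a motor of axonal transport, was near the floor in reverted Oct4GIP cells, and its levels of 17.7 and 4.75 against 0 and 0.324 CPM gave a ratio of 52.9-fold with a 95% counting interval of 9.11 to 2127 (edgeR adjusted p = 0.0157). Dab1, an adaptor of reelin signalling, had 14.4 and 12.7 against 1.19 and 0.324 CPM, a ratio of 21.5-fold with a 95% counting interval of 7.04 to 107 (edgeR adjusted p = 0.00295). Kif1a and Dab1 thus differed at low levels. In the other direction, Etv4 (ENSMUSG00000017724, chromosome 11, 101769742 to 101785371), an ETS factor induced by FGF and ERK signalling, had 1.23 and 0.396 CPM in 129/MSM and 34.4 and 72.7 CPM in Oct4GIP cells (log2 difference −6.01 ± 0.57, edgeR adjusted p = 0.000713). Pcmtd2 had 2.06 and 0.792 against 34.4 and 29.8 CPM (log2 difference −4.45 ± 0.39, edgeR adjusted p = 0.000547). Etv4 and Pcmtd2 were at or near the floor in reverted 129/MSM cells, so that their log2 differences rest on few counts and have no exact size. Steap3, a metalloreductase of endosomal iron uptake, had 4.52 and 1.98 against 26.1 and 42.2 CPM (log2 difference −3.41 ± 0.44, edgeR adjusted p = 0.00326). Myof (myoferlin), a protein of membrane repair, had 11.1 and 21 against 179 and 138 CPM (log2 difference −3.29 ± 0.28, edgeR adjusted p = 0.000456) and had the reverse order when primed, 70.4 against 3.04 CPM (edgeR interaction adjusted p = 0.000291). Sema5a, a semaphorin on chromosome 15, had 7.40 and 0.792 against 35.6 and 40.2 CPM (log2 difference −3.22 ± 0.55, edgeR adjusted p = 0.01). For all of these genes the 129/MSM and Oct4GIP reverted libraries did not overlap, which the naming rule required.

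With the treatment as a block, which pairs the AICAR and the AICAR+LIF libraries, 1563 genes differed between reverted cells in place of 942. Leaving out the AICAR+LIF library of Oct4GIP gave 596 genes, leaving out the AICAR library of 129/MSM 568 and leaving out the AICAR+LIF library of 129/MSM 476.

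Among germline genes that DNA methylation keeps silent in somatic cells, more were lower than higher in 129/MSM after reversion. Of 23 tested, 5 were lower, 1 higher and 17 not called in reverted cells (median −0.84 beside 0.00), while over all genes 3.08% were lower and 3.29% higher. The lower ones were Tuba3a, Tuba3b, Ddx4, Brdt and Smc1b. Tuba3a, an alpha tubulin of the testis, had 6.58 and 9.51 CPM in 129/MSM and 138 and 147 CPM in Oct4GIP cells (log2 difference −4.14 ± 0.24, edgeR adjusted p = 5.23e-05) and no counts in either primed library. Its near-identical copy Tuba3b had 2.06 and 1.58 against 36.8 and 26.3 CPM (log2 difference −4.06 ± 0.45, edgeR adjusted p = 0.00147), and reads of these copies could be split between them. Both were therefore read mainly in reverted Oct4GIP cells. Ddx4 (Vasa), an RNA helicase of germ cells, had 5.75 and 5.94 against 21.4 and 21.7 CPM (log2 difference −1.87 ± 0.34, edgeR adjusted p = 0.0132). Brdt, a testis bromodomain protein, had 2.06 and 0.396 against 14.8 and 10.1 CPM (log2 difference −3.28 ± 0.65, edgeR adjusted p = 0.0183), and Smc1b, a cohesin subunit of meiosis, 3.29 and 3.57 against 27.3 and 13.6 CPM (log2 difference −2.52 ± 0.50, edgeR adjusted p = 0.0187). In each of the 5 genes both reverted Oct4GIP libraries lay above both 129/MSM libraries. The meiotic gene Mei1 went the other way, with 0 counts in both reverted Oct4GIP libraries and 2.88 and 6.34 CPM in 129/MSM, at least 2.59-fold higher against the floor per library (edgeR adjusted p = 0.0456). Stra8, the gatekeeper of meiosis, which is on no list and was named after its values were seen, had 2.06 and 1.19 against 98.5 and 43.5 CPM (log2 difference −5.39 ± 0.55, edgeR adjusted p = 0.00108). Many members of the list, among them Dazl, Tuba3a and Rec8, had 0 counts in both primed libraries and could not be called in primed cells. In primed cells 5 members were lower and 0 higher in 129/MSM (median 0.00), beside 4.93% and 7.37% of all genes. Of the lower ones, Tdrkh, with 41.9 against 121 CPM, lies in a block of chromosome 3 that was lower in 129/MSM as a whole, and of those called after reversion Smc1b and Mei1 lie on chromosome 15. In primed cells Ddx4 had 0 counts in 129/MSM and 16.7 CPM in Oct4GIP cells, at least 17.2-fold lower (edgeR adjusted p = 0.00154).

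Enzymes and cofactors of DNA methylation differed in both directions. Of 21 tested, 3 were higher (Tet2, Mbd1 and Zfp57), 3 lower (Dnmt3b, Uhrf2 and Dppa3) and 15 not called in reverted 129/MSM cells (median 0.07), beside 3.29% and 3.08% of all genes. Dnmt3b, a de novo methyltransferase, had 51.8 and 42.4 CPM in 129/MSM and 83.7 and 129 CPM in Oct4GIP cells (log2 difference −1.19 ± 0.22, edgeR adjusted p = 0.0143) and in primed cells the opposite order, with 889 CPM in 129/MSM and 246 CPM in Oct4GIP cells (log2 difference 1.85 ± 0.29, edgeR adjusted p = 0.00437). The change of direction itself passed (edgeR interaction adjusted p = 0.00231). Mbd1, which binds methylated CpG, had 44.4 and 51.5 against 17.8 and 16.5 CPM (log2 difference 1.49 ± 0.24, edgeR adjusted p = 0.00778). In primed cells 2 members were higher, Dnmt3b and Uhrf1, and 2 lower, Apobec1 and Gadd45a (median 0.29), beside 7.37% and 4.93% of all genes. Among 56 imprinted genes, 2 were higher (Cd81 and Zdbf2) and 2 lower (Peg3 and Sfmbt2) in reverted 129/MSM cells (median 0.11), a share near that of all genes. Zdbf2, expressed from the paternal allele, had 201 and 145 against 35.6 and 10.7 CPM (log2 difference 3.02 ± 0.41, edgeR adjusted p = 0.00374). Peg3, also paternally expressed, had 78.5 and 91.1 against 188 and 137 CPM (log2 difference −0.93 ± 0.19, edgeR adjusted p = 0.0209).

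Among enzymes of glutathione metabolism and detoxification, more were lower than higher in reverted 129/MSM cells. Of 36 tested, 11 were lower, 2 higher (Akr1b8 and Aldh2) and 23 not called, with a median of −0.45. Over all genes 3.08% were lower and 3.29% higher. Gpx2, a glutathione peroxidase, had 14.4 and 21.8 CPM in 129/MSM and 112 and 132 CPM in Oct4GIP cells (log2 difference −2.75 ± 0.24, edgeR adjusted p = 0.000547). Gpx4, which reduces lipid peroxides, had 158 and 146 against 291 and 297 CPM (log2 difference −0.95 ± 0.15, edgeR adjusted p = 0.00698). For both peroxidases the reverted 129/MSM libraries lay below the Oct4GIP ones. The glutathione transferase Gstm3 had 6.99 and 18.2 against 87.2 and 59.7 CPM (log2 difference −2.52 ± 0.39, edgeR adjusted p = 0.00689), and Gstm1 57.1 and 99 against 211 and 186 CPM (log2 difference −1.34 ± 0.24, edgeR adjusted p = 0.0119). Nnt, the mitochondrial transhydrogenase that supplies NADPH, had 21.4 and 31.3 against 89.6 and 76.9 CPM (log2 difference −1.65 ± 0.23, edgeR adjusted p = 0.00447), and Nqo1, a quinone reductase, 65.8 and 82.4 against 115 and 180.0 CPM (log2 difference −1.0 ± 0.23, edgeR adjusted p = 0.0345). The Gstm genes and Gclm, 8 of the 36 members, lie on chromosome 3, much of which was lower in 129/MSM, and Gstm genes are near-identical copies that can share reads. In primed cells 7 members were higher and 4 lower (median −0.24), beside 7.37% and 4.93% of all genes. For Gpx2 the order was reversed there, with 4.87 CPM in 129/MSM and 0 counts in Oct4GIP cells (edgeR interaction adjusted p = 0.00367).

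Members of signalling pathways differed in both directions in reverted cells. Of 22 Nodal and Activin pathway genes tested, 4 were higher (Tdgf1, Lefty1, Lefty2 and Fst), 1 lower (Foxh1) and 17 not called (median −0.07), where 3.29% of all genes were higher and 3.08% lower. Lefty2, a secreted Nodal antagonist, had 305 and 639 CPM in 129/MSM and 106 and 58.4 CPM in Oct4GIP cells (log2 difference 2.55 ± 0.36, edgeR adjusted p = 0.00477), and Lefty1 64.1 and 143 against 33.2 and 25 CPM (log2 difference 1.86 ± 0.35, edgeR adjusted p = 0.0142). Foxh1, the DNA-binding partner of Smad2, had 41.5 and 49.5 against 76 and 76.6 CPM (log2 difference −0.74 ± 0.18, edgeR adjusted p = 0.0394) and lies on chromosome 15. Nodal itself, with 63.3 and 65.8 against 75.4 and 78.8 CPM, was not called. Of 19 Wnt targets and TCF factors, 2 were higher, T and Lef1, and 1 lower, Tcf7l1 (median 0.16). Lef1, an effector of Wnt signalling, had 60.4 and 28.5 against 10.1 and 8.11 CPM (log2 difference 2.31 ± 0.39, edgeR adjusted p = 0.01), and Tcf7l1, a repressor of naive genes, 89.6 and 113 against 151 and 205 CPM (log2 difference −0.82 ± 0.20, edgeR adjusted p = 0.0401). Of 19 ERK feedback and target genes, 0 were higher and 2 lower, Etv4 and Fos (median 0.00). Fos, an immediate early gene, was high in 1 of the reverted libraries alone, with 0.411 and 0.792 against 1.78 and 44.1 CPM. Its neighbour in that response, Egr1, had 1.23 and 0.792 against 1.19 and 88.6 CPM and did not pass. Formative and primed genes were 4 higher (Lef1, Cdh2, Krt18 and Sox11), 3 lower (Dnmt3b, Sox4 and Etv4) and 19 not called of 26 (median 0.00). Sox11, a neural and epiblast factor, had 14.4 and 13.9 against 0 and 2.27 CPM (log2 difference 3.25 ± 0.54, edgeR adjusted p = 0.00923).

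Interferon response genes differed in both directions in reverted cells. Of 23 tested, 4 were lower in 129/MSM (Ifitm1, Ifitm3, Oas1a and Ifi27) and 2 higher (Bst2 and Ddx58), with a median of −0.06, beside 3.08% and 3.29% of all genes. Ifitm3, a membrane protein that blocks viral entry, had 43.6 and 67.3 against 111 and 172 CPM (log2 difference −1.36 ± 0.26, edgeR adjusted p = 0.0164). Ddx58 (RIG-I), the sensor of viral RNA, had 42.3 and 35.3 against 13.1 and 11.7 CPM (log2 difference 1.66 ± 0.28, edgeR adjusted p = 0.00929). Of 28 genes of MHC class I and antigen presentation, 2 were lower, H2-Q4 and H2-Q7, and 0 higher (median 0.05). MHC genes vary between strains, and reads of either line were mapped to the C57BL/6 sequence, so that loss of reads and lower expression cannot be told apart there. Of 14 extraembryonic markers, 1 was higher (Lamb1) and 3 lower (Tfap2c, Krt7 and Pdgfra; median −0.17). Lamb1, a laminin chain, had 302 and 259 against 55.2 and 58.4 CPM (log2 difference 2.30 ± 0.16, edgeR adjusted p = 0.000157), and Tfap2c, a factor of trophoblast and germ cells, 38.6 and 40.4 against 125 and 116 CPM (log2 difference −1.60 ± 0.18, edgeR adjusted p = 0.00164).

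The remaining groups are given beside shares of 3.29% higher and 3.08% lower over all genes in reverted cells. AMPK subunits and upstream kinases were 1 higher (Camkk2), 0 lower and 11 not called (median −0.07). Camkk2, a kinase that activates AMPK, had 56.7 and 53.9 against 27.3 and 16.9 CPM (log2 difference 1.37 ± 0.27, edgeR adjusted p = 0.0182). Of the 17 p38 pathway genes, 0 were called in reverted cells by edgeR and 0 by DESeq2, with 1 at an unadjusted p under 0.05 (median −0.10). LIF-STAT3 genes were 2 higher, Lifr and Klf4, and 0 lower of 19 (median 0.04). Lifr, the LIF receptor, had 81.8 and 79.2 against 35.6 and 46.1 CPM (log2 difference 0.96 ± 0.21, edgeR adjusted p = 0.0255). Mesendoderm genes were 1 higher (T) and 1 lower (Pdgfra) of 18 (median 0.00), and neural genes 1 higher (Ncam1) and 1 lower (Hesx1) of 9 (median 0.00). Of 29 fibroblast markers, 1 was higher (Col5a1) and 1 lower (Ccn2; median 0.00). Of 6 genes of the 2-cell-like state, all Zscan4 copies that can share reads, 0 were called by edgeR or DESeq2 in reverted cells or over the pairs. In reverted cells 0 had an unadjusted p under 0.05 (median −0.66). Their summed level was 0 CPM in both primed libraries, so that the primed and interaction tests could not call them. Zscan4c, a marker of that state, had at most 4.54 CPM.

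**Figure D3:**
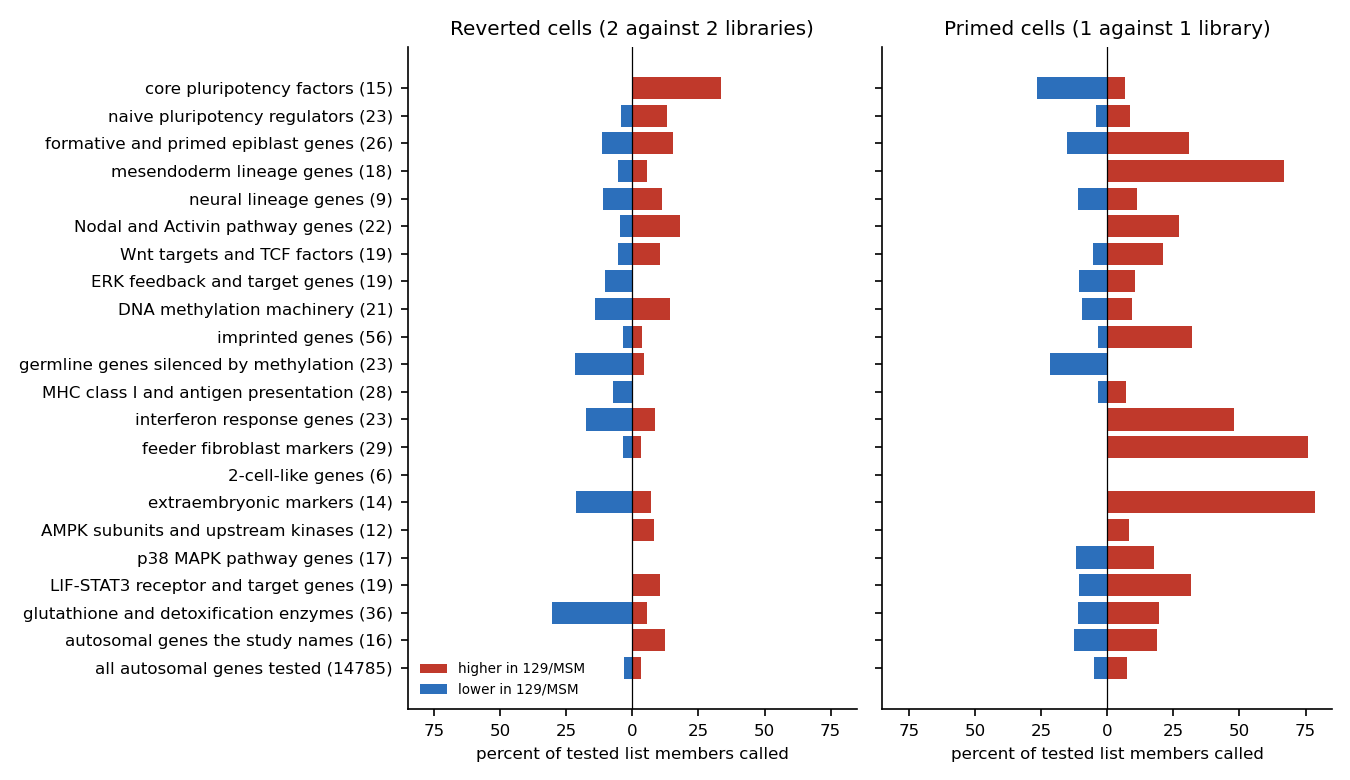
Share of the tested members of each gene list (number in parentheses) that edgeR called higher (red, to the right) or lower (blue, to the left) in 129/MSM, in reverted cells on the left and primed cells on the right, with all autosomal genes tested in the bottom row. Extraembryonic, fibroblast and mesendoderm genes have the longest bars in primed cells, and all are to the right.

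Primed 129/MSM cells carried several genes of the primitive streak and of endoderm that primed Oct4GIP cells hardly expressed. Each line had 1 primed library, so that the spread behind all calls in primed cells came from the reverted libraries. Cer1, a secreted antagonist of Nodal and Wnt signals, had 768 CPM in 129/MSM and 1 count in Oct4GIP cells, a ratio of 2024-fold with a 95% counting interval of 363 to 79975 (edgeR adjusted p = 8.50e-06). Of 18 mesendoderm genes tested, 12 were higher in 129/MSM, 0 lower and 6 not called, with a median of 3.62 beside 0.00. Of those not called, Wnt3 and Des had lower levels in 129/MSM, 24 against 38 and 14.9 against 45.9 CPM. Wnt8a had 21.4 against 16.7 CPM, Snai1 and Fgf17 were also higher in 129/MSM, and Cdx1 had 0 counts in both. Over all genes tested in primed cells 7.37% were higher and 4.93% lower. Among the libraries compared, Cer1 was read almost only in the primed 129/MSM one. Lhx1, a head organiser factor, had 353 CPM against 0 counts, at least 310.1-fold higher (edgeR adjusted p = 6.44e-05). Sox17, a master factor of endoderm, had 144 CPM against 0 counts, at least 126-fold higher (edgeR adjusted p = 0.000201). Eomes, a T-box factor of mesoderm and endoderm, had 153 against 12.1 CPM (log2 difference 3.65 ± 0.36, edgeR adjusted p = 0.000455), and Foxa2, an endoderm factor, 72.4 against 3.42 CPM (log2 difference 4.39 ± 0.61, edgeR adjusted p = 0.00246). Gata6 and Gata4 had 89.6 and 84.4 CPM in 129/MSM and 1 count each in Oct4GIP cells. These genes were low in reverted cells of both lines, where Eomes had at most 10.1 CPM. The difference between states passed for Eomes, Gata6 and Sox17 (edgeR interaction adjusted p = 0.00221, 0.00469 and 0.0413). It did not pass for Cer1, which had at most 1 count in each reverted library, or for T (edgeR interaction adjusted p = 0.9999 and 0.582). Of 14 extraembryonic markers 11 were higher and 0 lower in 129/MSM (median 3.96), beside the same shares of all genes, and Eomes, Sox17, Gata4, Gata6, Foxa2 and Pdgfra are on both lists. Of the others, Krt8, a simple epithelial keratin, had 632 against 44.4 CPM (log2 difference 3.83 ± 0.24, edgeR adjusted p = 4.54e-05) and Gata3, a trophoblast factor, 26 against 1.52 CPM (log2 difference 4.05 ± 0.83, edgeR adjusted p = 0.0176).

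Core pluripotency factors called in primed cells were mostly lower in 129/MSM, 4 of 15 (Nanog, Pou5f1, Utf1 and L1td1) and 1 higher (Sall4; median 0.00). For this and the next lists, 7.37% of all genes were higher and 4.93% lower in primed cells. Nanog had 62 CPM in 129/MSM and 251 CPM in Oct4GIP cells (log2 difference −2.01 ± 0.30, edgeR adjusted p = 0.00353) and Pou5f1 474 against 844 CPM (log2 difference −0.83 ± 0.19, edgeR adjusted p = 0.0205). Utf1 had 110.1 against 217 CPM (log2 difference −0.98 ± 0.24, edgeR adjusted p = 0.0302), the reverse of its order in reverted cells, and L1td1 145 against 306 CPM (log2 difference −1.07 ± 0.20, edgeR adjusted p = 0.0107). Sall4, a zinc finger factor, had 396 against 88.5 CPM (log2 difference 2.16 ± 0.24, edgeR adjusted p = 0.000859). Naive regulators were 2 higher (Spp1 and Tbx3) and 1 lower (Fbxo15) of 23 (median 0.00). Formative and primed genes were 8 higher and 4 lower of 26 (median 0.01), so that each line was above the other in part of the list. Otx2, a factor of the anterior epiblast, had 410.0 against 86.2 CPM (log2 difference 2.25 ± 0.42, edgeR adjusted p = 0.0096), Fgf8, a growth factor of the streak, 59.7 against 6.83 CPM (log2 difference 3.12 ± 0.54, edgeR adjusted p = 0.0072), and Etv5, an ETS factor, 152 against 258 CPM (log2 difference −0.76 ± 0.21, edgeR adjusted p = 0.0452). Nodal pathway genes were 6 higher and 0 lower of 22 (median 0.51). Inhba, which encodes the subunit of Activin A, had 46.4 CPM in 129/MSM and 0 counts in Oct4GIP cells, at least 40.8-fold higher (edgeR adjusted p = 0.0015). Wnt genes were 4 higher and 1 lower of 19 (median 0.36), with Dkk1, a Wnt antagonist, at 97.7 CPM against 0 counts, at least 85.8-fold higher (edgeR adjusted p = 0.000137).

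Fibroblast genes were also higher in the primed 129/MSM library, whose cells were grown on feeders. Of 29 fibroblast markers tested, 22 were higher, 0 lower and 7 not called (median 3.77), beside 7.37% of all genes higher and 4.93% lower, and 27 had their highest level of the 6 libraries there. The summed level of the 32 autosomal markers was 2833, 298 and 310.2 CPM in 129/MSM and 527, 299 and 389 CPM in Oct4GIP libraries. Sparc, a matrix protein also made by other cells, was the most abundant by CPM in each library, and without it the sums were 2257, 105 and 92.3 and 356, 98.5 and 133 CPM. Markers at 0 counts numbered 1, 11 and 14 in 129/MSM and 8, 14 and 11 in Oct4GIP libraries. Col1a1, a chain of collagen I, had 146 against 7.21 CPM (log2 difference 4.33 ± 0.39, edgeR adjusted p = 0.000278), and Col1a2 181 against 2.28 CPM (log2 difference 6.28 ± 0.43, edgeR adjusted p = 7.82e-05). The fibroblast factor Prrx1 had 22.4 CPM against 0 counts, and Lum, a proteoglycan of connective tissue, 8.12 CPM against 0 counts. For comparison, the 8 Oct4GIP cultures at day 8 and day 16 had sums of 6472 to 67857 CPM. Fibroblast RNA thus moved with the primed contrast, and its part in the differences of mesendoderm, imprinted, interferon and other genes was not tested. Fewer cells of a type and less RNA per cell cannot be told apart in these bulk libraries.

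Imprinted genes were higher in primed 129/MSM cells in 18 of 56 cases and lower in 2 (median 0.63), beside 7.37% and 4.93% of all genes. H19, a maternally expressed RNA, had 343 CPM against 0 counts in Oct4GIP cells, at least 301-fold higher (edgeR adjusted p = 0.00062), and in reverted cells 16 and 3.17 against 1.78 and 0 CPM. Peg10 and Mest, paternally expressed genes, had 944 against 25.8 CPM (log2 difference 5.19 ± 0.57, edgeR adjusted p = 0.000773) and 434 against 19 CPM (log2 difference 4.51 ± 0.46, edgeR adjusted p = 0.000546). Snrpn had the reverse order, 138 against 464 CPM (log2 difference −1.75 ± 0.25, edgeR adjusted p = 0.0029). Of 23 interferon response genes, 11 were higher and 0 lower (median 1.77), beside these shares of all genes. The transcription factor Irf1 had 32.1 against 5.70 CPM (log2 difference 2.49 ± 0.40, edgeR adjusted p = 0.00514). MHC and antigen presentation genes were 2 higher and 1 lower of 28 (median 0.40), LIF-STAT3 genes 6 and 2 of 19 (median 0.53), and ERK target genes 2 and 2 of 19 (median 0.99). Stat3 itself had 96.7 against 38 CPM (log2 difference 1.35 ± 0.28, edgeR adjusted p = 0.0146). Neural genes were 1 higher (Hesx1) and 1 lower (Ncam1) of 9 (median 0.00), p38 pathway genes 3 higher and 2 lower of 17 (median 0.27), and AMPK genes 1 higher, the upstream kinase Map3k7, and 0 lower (median 0.09). Map3k7 had 165 against 80.9 CPM (log2 difference 1.03 ± 0.23, edgeR adjusted p = 0.0189).

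Among protein-coding genes whose log2 CPM averaged 3 or more, the named genes of primed cells were Emp1, Nptx2, Prdm1, Hexa, Galnt11 and Ctsc. All of these were at 0 counts in primed Oct4GIP cells. In the other direction they were Hsf2bp, Olfr718-ps1, Pnldc1, Neurl1a, Ano3 and Sv2a. Both are in the order of fitted differences, which have no exact size against 0 counts. Lhx1, described above, had a larger difference but fell below that mean level. Emp1, an epithelial membrane protein, had 150.3 CPM in 129/MSM, at least 132-fold higher (edgeR adjusted p = 0.000662). Ano3, an anoctamin, had 7.47 against 147 CPM (log2 difference −4.29 ± 0.48, edgeR adjusted p = 0.000823), and Sv2a, a synaptic vesicle protein at the edge of the chromosome 3 block, 15.6 against 278 CPM (log2 difference −4.15 ± 0.36, edgeR adjusted p = 0.000218). Neurl1a, a ubiquitin ligase, had 0.974 against 23.2 CPM, a ratio of 23.8-fold with a 95% counting interval of 7.76 to 118 (edgeR adjusted p = 0.00301). Pnldc1, the trimmer of piRNAs, had 0 counts in 129/MSM and 7 counts in Oct4GIP cells, at least 2.73-fold lower (edgeR adjusted p = 0.0402).

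A set of genes was at 0 counts in primed Oct4GIP cells and well expressed in every other library. Outside the planned rules, genes at 0 counts in 1 library and at 10 CPM or more in each of the other 5 were counted after the data were seen: there were 10 for primed Oct4GIP cells, 2 for primed 129/MSM cells and 0 for each reverted library. Each reverted library had another reverted one of its line among the other 5, and the primed libraries had no such partner. These numbers therefore cannot be compared between states. Trim25, a ubiquitin ligase of RIG-I signalling, had 13, 215 and 228 CPM in 129/MSM cells and 0, 224 and 254 CPM in Oct4GIP cells. Hexa, the alpha subunit of the lysosomal beta-hexosaminidase A, had 53.9, 92.9 and 65.8 CPM in 129/MSM cells and 0, 163 and 135 CPM in Oct4GIP cells. Ctsc, the lysosomal protease cathepsin C, had 36.7, 27.1 and 26.1 CPM in 129/MSM cells and 0, 112 and 86.9 CPM in Oct4GIP cells. These genes were thus read in reverted Oct4GIP cells at the level of 129/MSM cells or above, although their primed source had no count. Galnt11, which starts O-glycosylation, had 41.6, 39 and 45.2 CPM in 129/MSM cells and 0, 36.8 and 25.3 CPM in Oct4GIP cells, and Manbal 32.1, 40.3 and 29.7 CPM in 129/MSM cells and 0, 23.7 and 23 CPM in Oct4GIP cells. The others were Nptx2, Prdm1, Slco4c1, Prxl2a and Lrrc15. In the Oct4GIP libraries after 2 or 3 passages, the lowest level was 230.0 CPM for Trim25, 75.2 for Hexa and 13.1 for Ctsc. For primed 129/MSM cells the genes were Hsf2bp, a factor of meiotic recombination with 0, 50.6 and 75.3 CPM in 129/MSM cells and 15.9, 60.5 and 31.5 CPM in Oct4GIP cells, and the noncoding RNA Platr10 with 0, 36.2 and 39.6 CPM in 129/MSM cells and 57, 48.7 and 63.3 CPM in Oct4GIP cells.

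The promoters of 5 of these genes are shown as examples of a set that was picked by its 0 counts in 1 library. Each runs from 250 bases before to 50 after the annotated start (RefSeq, GRCm38.p6, + strand for all 5), at chr9:59539290-59539589 for Hexa, chr7:88277835-88278134 for Ctsc, chr11:88999153-88999452 for Trim25, chr5:25222622-25222921 for Galnt11 and chr2:157367344-157367643 for Manbal. Capitals mark CG, the site of DNA methylation, which reads the same on both strands.
Hexa: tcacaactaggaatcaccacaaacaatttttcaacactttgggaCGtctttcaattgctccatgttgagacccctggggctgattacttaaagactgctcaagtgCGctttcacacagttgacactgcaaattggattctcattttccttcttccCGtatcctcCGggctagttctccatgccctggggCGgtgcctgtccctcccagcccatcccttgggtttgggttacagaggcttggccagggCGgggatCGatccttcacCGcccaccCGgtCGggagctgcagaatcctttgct
Ctsc: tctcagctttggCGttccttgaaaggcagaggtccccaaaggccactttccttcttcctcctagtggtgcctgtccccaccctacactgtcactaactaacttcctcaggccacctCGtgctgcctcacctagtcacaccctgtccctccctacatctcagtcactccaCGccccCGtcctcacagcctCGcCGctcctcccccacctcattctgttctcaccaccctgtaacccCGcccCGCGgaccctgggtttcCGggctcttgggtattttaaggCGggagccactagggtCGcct
Trim25: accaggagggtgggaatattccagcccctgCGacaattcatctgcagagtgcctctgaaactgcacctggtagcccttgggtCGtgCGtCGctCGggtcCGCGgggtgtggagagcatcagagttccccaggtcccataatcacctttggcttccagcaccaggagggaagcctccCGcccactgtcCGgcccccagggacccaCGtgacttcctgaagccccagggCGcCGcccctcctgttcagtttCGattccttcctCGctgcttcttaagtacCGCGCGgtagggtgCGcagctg
Galnt11: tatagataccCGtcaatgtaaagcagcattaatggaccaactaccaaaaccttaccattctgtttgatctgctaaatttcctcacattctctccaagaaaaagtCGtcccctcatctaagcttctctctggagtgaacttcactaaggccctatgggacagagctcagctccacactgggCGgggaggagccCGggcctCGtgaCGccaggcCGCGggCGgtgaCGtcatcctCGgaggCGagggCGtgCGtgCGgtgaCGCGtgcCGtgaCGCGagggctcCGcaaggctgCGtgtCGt
Manbal: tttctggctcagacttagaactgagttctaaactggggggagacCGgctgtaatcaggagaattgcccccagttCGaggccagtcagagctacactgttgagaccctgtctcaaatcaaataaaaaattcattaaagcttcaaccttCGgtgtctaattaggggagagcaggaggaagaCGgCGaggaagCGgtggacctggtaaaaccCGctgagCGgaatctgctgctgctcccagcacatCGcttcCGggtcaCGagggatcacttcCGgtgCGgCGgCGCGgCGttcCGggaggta
They hold 10, 12, 18, 23 and 18 CG in this order. Of the 10 genes, 9 had a promoter entry, with 10 to 23 CG (median 18). At least 10 CG, the lowest number among these 9, were held by 43.5% of all 32851 promoters and by 84.1% of those of the 9838 tested protein-coding genes with an entry, whose median was 21. Methylation was not measured in these libraries.

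**Figure D4:**
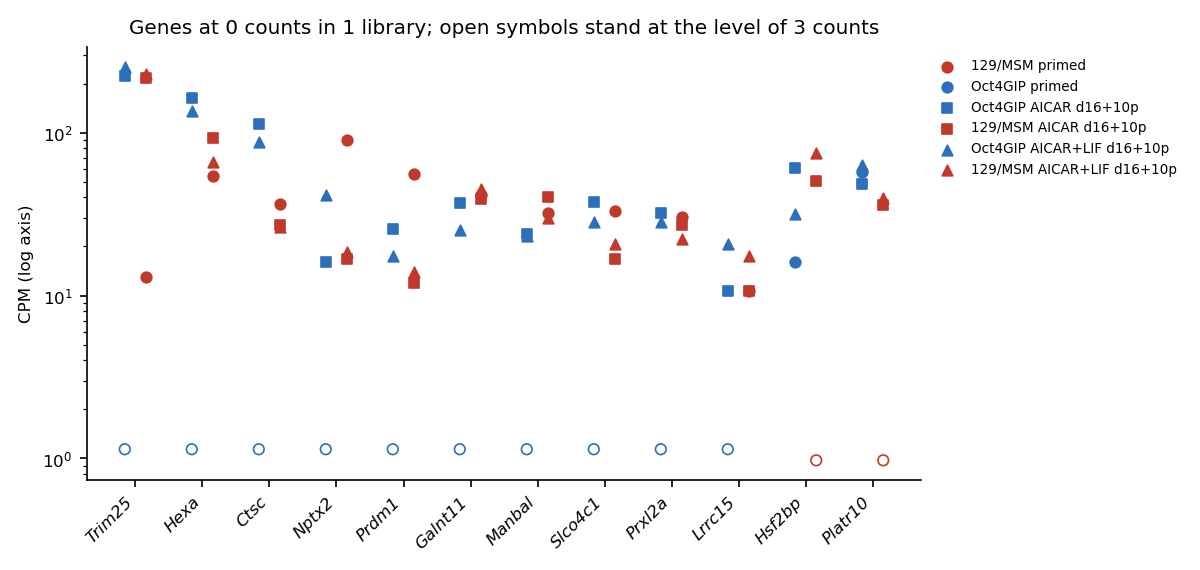
Level (CPM, log axis) in each of the 6 libraries of the 12 genes at 0 counts in 1 library and at 10 CPM or more in the other 5. Open circles are libraries at 0 counts, drawn at the level of 3 counts; 10 genes are open for primed Oct4GIP (blue) and 2 for primed 129/MSM cells (red).

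The line difference itself depended on the state. Adam23 had a lower level in 129/MSM than in Oct4GIP cells when primed and higher ones after reversion, while Hexa, Ctsc and Prdm1 had the reverse order. Kif1a and Mgarp were higher in 129/MSM cells after reversion. Their primed levels were closer, 205 and 10.7 CPM in 129/MSM against 320.1 and 15.2 CPM in Oct4GIP cells. The test of this dependence, the line difference in primed minus that in reverted cells, called 899 genes (6.08%), 540 (3.65%) with a difference more in favour of 129/MSM when primed and 359 (2.43%) with one less so. In the fit of all 22 libraries, with 17686 genes tested in place of 14785, this test called 233, with thinned counts 269 and with DESeq2 418. Of the 899 genes, 673 were also called in primed and 246 in reverted cells, and all 91 genes called in both states with opposite directions were among them. Adam23, a cell surface protein without active protease, had 12.7, 69.9 and 43.6 CPM in 129/MSM cells and 150.0, 14.8 and 11 CPM in Oct4GIP cells (edgeR interaction adjusted p = 0.000636). When primed, Kif1a had 205 CPM in 129/MSM and 320.1 CPM in Oct4GIP cells, far above its reverted levels. Olfr718-ps1, an olfactory receptor pseudogene by its name, had 3.57, 315 and 121 CPM in 129/MSM cells and 289, 38.6 and 155 CPM in Oct4GIP cells (edgeR interaction adjusted p = 0.00881). Its reverted libraries overlapped between the lines, while the primed ones were far apart. Sox4, a factor of progenitor cells, had 195, 2.06 and 3.57 CPM in 129/MSM cells and 85.8, 13.6 and 13 CPM in Oct4GIP cells (edgeR interaction adjusted p = 0.00307). Ncam1, a neural adhesion molecule, had 28.9, 61.7 and 86 CPM in 129/MSM cells and 72.9, 24.9 and 17.2 CPM in Oct4GIP cells (edgeR interaction adjusted p = 0.00415). Of the 404 genes on any list, 75 passed this test, beside 6.08% of all genes, and 19 in the fit of all 22 libraries.

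By list, those with a difference more in favour of 129/MSM when primed and those less so numbered, in turn, 9 and 0 of 18 mesendoderm lineage genes, 10 and 0 of 29 feeder fibroblast markers, 9 and 1 of 14 extraembryonic markers, 6 and 0 of 23 interferon response genes. Their medians were 3.99, 3.82, 4.31 and 1.77 beside 0.03 over all genes, of which 3.65% and 2.43% passed in these directions. Other lists with more in the first direction included glutathione enzymes with 6 and 0 of 36, ERK genes with 4 and 0 of 19 and imprinted genes with 6 and 2 of 56. Core pluripotency factors had the reverse balance, with 1 and 5 of 15 (median −0.29). Germline genes had 0 and 2 of 23 and DNA methylation genes 1 and 2 of 21. Many of the germline genes, such as Tuba3a and Tuba3b, had 0 counts in both primed libraries, so that the interaction could not call them. Fibroblast markers moved with this contrast as described for primed cells.

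Genes of chromosome 15 and of parts of chromosome 3 differed together in all 3 pairs. Mcl1, an anti-apoptotic protein, Setdb1, a histone methyltransferase, and Arnt, a partner of hypoxia factors, lie within a block of chromosome 3 that was read lower in 129/MSM. Mcl1 had 179, 346 and 301 CPM in 129/MSM cells and 1086, 514 and 1319 CPM in Oct4GIP cells, Setdb1 106, 186 and 164 CPM in 129/MSM cells and 527, 395 and 1007 CPM in Oct4GIP cells and Arnt 76.9, 101 and 111 CPM in 129/MSM cells and 762, 196 and 577 CPM in Oct4GIP cells. The median log2 difference over chromosome 15 was −0.28, −0.36 and −0.38 in the primed, AICAR and AICAR+LIF pairs (592 genes), and over chromosome 3 −0.15, −0.08 and −0.15 (724 genes). Chromosome 8 had 0.03, 0.05 and 0.32 (787 genes), so that it stood apart in the AICAR+LIF pair alone. Of the 592 chromosome 15 genes, 80 were called lower and 16 higher in reverted 129/MSM cells, beside 3.08% and 3.29% of all genes.

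Chromosome 3 fell into segments, whose edges were set after the data were seen. Before the block, 256 genes with a mean of at least 10 CPM had medians of −0.01, 0.00 and −0.02. Over the block, from 94310089 to 96219709, 47 genes had medians of −1.89, −0.59 and −1.91, which is a 3.72-, 1.51- and 3.75-fold higher level in Oct4GIP cells. In all 3 pairs 41 of these genes were lower in 129/MSM and 0 higher. After the block, 166 genes had medians of −0.44, −0.37 and −0.39, and at the distal end, from 142239590 to 159938664, 41 genes had medians of 0.99, 0.95 and 0.84, thus higher in 129/MSM. Usp33, a ubiquitin protease of the distal end, had 58.8, 71.1 and 76.5 CPM in 129/MSM cells and 29.2, 37.4 and 36 CPM in Oct4GIP cells. Relative to the naive mESC library, which is of another line, the block had medians of −0.12 to 0.01 in 129/MSM libraries and 0.56 to 2.0 in the Oct4GIP libraries compared here. The distal end had 0.06 to 0.21 and −1.0 to −0.65, and chromosome 15 0.00 to 0.05 and 0.37 to 0.44. In these regions the compared Oct4GIP libraries lay further from the naive level than those of 129/MSM. Counts of RNA cannot tell DNA copies from transcription. Without chromosomes 3, 8 and 15, 706 genes remained called in reverted, 1515 in primed cells and 21 over the pairs, a choice also made after the data were seen.

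**Figure D5:**
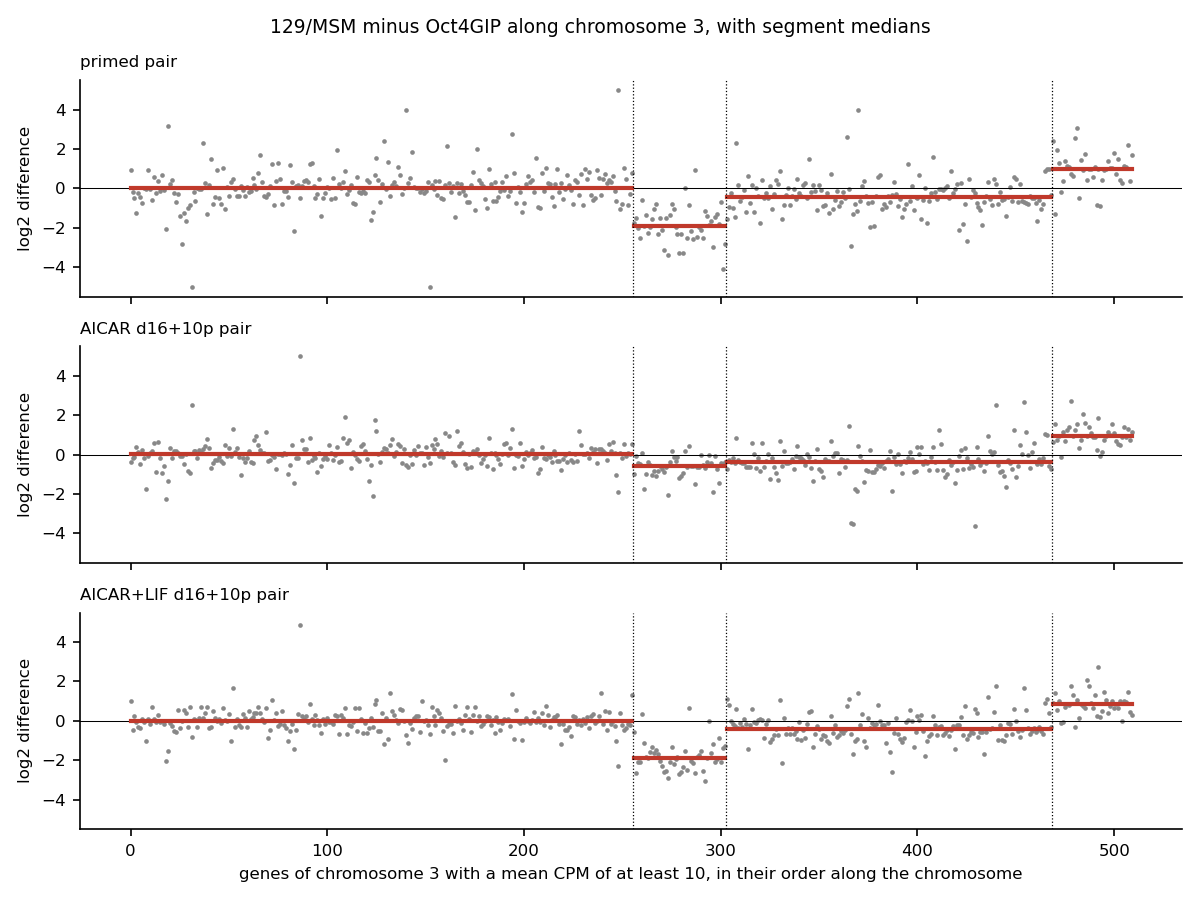
Line difference (129/MSM minus Oct4GIP, log2 of CPM + 0.5) of the chromosome 3 genes with a mean of at least 10 CPM, in their order along the chromosome, for the primed, AICAR and AICAR+LIF pairs from top to bottom. Points are genes, those beyond 5 on the log2 scale drawn at 5, red lines are segment medians and dotted lines the segment edges; the block lies below 0 and the distal end above 0 in every pair.

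Few genes were read in 1 line only, with at most 3 counts in each library of the other line and at least 10 CPM in each of its own. Mroh3, of unknown role, was the protein-coding one, with 33.4, 16 and 20.4 CPM in Oct4GIP cells and 0 counts in every 129/MSM library, at least 18.9-fold higher on the mean against the floor per library. Gm10503, an antisense RNA, had 11, 14.8 and 11.7 CPM in Oct4GIP and at most 3 counts in each 129/MSM library. In 129/MSM cells the genes were the pseudogenes Gm45660, Gm7065 and Rpl19-ps5 and the microRNA gene Mir682. Gm7065 had 17.5, 21.4 and 18.2 CPM and Mir682 11, 14 and 12.3 CPM in 129/MSM cells, both with 0 counts in Oct4GIP cells. Pseudogenes are near-copies of other genes, and their reads may depend on how each strain differs from the mapped sequence, which was not tested. They made up 98 of the genes called in reverted cells (10.4%, beside 11.1% of those tested), 81 of them higher and 17 lower in 129/MSM. In primed cells 50 were higher and 79 lower, together 7.09% of the genes called there, beside 11.1% of those tested. A deletion, silencing and loss of reads to sequence differences cannot be told apart from these counts.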

How the data were processed

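Polyadenylated RNA of 6 libraries was sequenced by the authors with a stranded kit and single reads. The authors mapped reads with Bowtie2 2.2.5 to the Ensembl GRCm38 cDNA and noncoding transcripts and deposited raw read counts per gene, from reads with a mapping quality of at least 1. The deposited counts were used as they stand. Libraries were grouped by their labels, and pairs come from the labelled state and treatment, not from replicate numbers. Whether pairs share a culture date is not given in the sources used here. Gene positions and biotypes are those of GENCODE M21, and promoters those of RefSeq.

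Genes were kept with filterByExpr, which left 15632 genes, 14785 of them autosomal. Counts were scaled with TMM and analysed by quasi-likelihood in edgeR 4.0.16 under R 4.3.3, with Benjamini-Hochberg adjustment over all genes tested and a threshold of 0.05. The test over pairs had the pair as a block. Reverted cells (2 against 2 libraries), primed cells (1 against 1) and their interaction came from a model with 4 groups. Folds against 0 counts used a floor of 3 counts per library, ratios with 1 to 3 counts have a 95% counting interval, and list medians are of levels raised to the floor. Correlations and chromosome medians used log2 of CPM with a pseudocount of 0.5. DESeq2 1.42.0, limma 3.58.1, other filters, thinned counts, other libraries for the spread, blocks and left-out libraries were tried. Each fit was first tested on simulated counts. Python 3.11.15, numpy 2.4.6, pandas 2.3.3, scipy 1.17.1 and matplotlib 3.10.9 were used.

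Named genes were, for the pairs, up to 12 autosomal protein-coding genes per direction with the largest fold change among those called, whose direction was the same in each pair and whose log2 CPM averaged 3 or more. For each of the other contrasts they were 6 per direction, and for reverted cells the libraries of the lines did not overlap. Symbols of the form Gm and digits or ending in Rik were left out. Up to 4 members of each list with the largest difference over the pairs, called members, genes the study names and up to 8 genes per line read in 1 line only could also be named. The 21 lists held 548 entries, of which 539 had an autosomal gene in the table: core pluripotency, naive, formative and primed, mesendoderm, neural, Nodal, Wnt, ERK, DNA methylation, imprinted, germline, MHC, interferon, feeder fibroblast, 2-cell-like, extraembryonic, AMPK, p38, LIF-STAT3, glutathione and study-named genes. Members and lists were chosen with earlier results of these data known.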

Additional observations from a re-analysis of the deposited data

Results flagged for a closer look

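The line difference differed between primed and reverted cells in 899 autosomal genes by the interaction test of edgeR, and the named ones among them are given here with its adjusted p. Of those with a difference more in favour of 129/MSM when primed, Emp1 had 150.3, 17.7 and 5.94 CPM in 129/MSM cells and 0, 7.71 and 14.9 CPM in Oct4GIP cells (edgeR adjusted p = 0.00289), in the order primed, AICAR and AICAR+LIF. Nptx2, a neuronal pentraxin, had 90.3, 16.9 and 18.6 CPM in 129/MSM cells and 0, 16 and 41.2 CPM in Oct4GIP cells (edgeR adjusted p = 0.00199). Both were at 0 counts in primed Oct4GIP cells. Prdm1 (Blimp1), a repressor needed for germ cell specification, had 55.5, 11.9 and 13.9 CPM in 129/MSM cells and 0, 25.5 and 17.5 CPM in Oct4GIP cells (edgeR adjusted p = 0.000992), and the transporter Slco4c1 33.1, 16.9 and 20.6 CPM in 129/MSM cells and 0, 37.4 and 28.2 CPM in Oct4GIP cells (edgeR adjusted p = 0.00126). For Ctsc and Hexa the adjusted p of edgeR was 0.000291 and 0.000522.

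In the other direction, Hsf2bp and Olfr718-ps1 had an adjusted p of 0.0108 and 0.00881 with edgeR. Pnldc1 had 0, 25.1 and 20.2 CPM in 129/MSM cells and 2.66, 17.2 and 17.5 CPM in Oct4GIP cells and was close to the threshold (edgeR adjusted p = 0.04995). Kif1a, Mgarp and Adam23, whose line difference changed with the state, had 0.0162, 0.000695 and 0.000636 in the same test of edgeR.

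The block of chromosome 3 was also measured in the Oct4GIP libraries that entered no comparison. In 14 of these 15 libraries its median level over naive cells was above that of every 129/MSM library. The exception was the A769662+LIF d16+10p library, at 0.0007, and over the 15 the block ran from 0.0007 to 2.17. The median of chromosome 15 was no higher than the highest of 129/MSM in 4 of these 15 libraries. Over the 15 it ran from 0.03 to 0.58.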

How the results depend on the processing

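In named genes no contrast changed its direction under any alternative run with a test. Of 146 values for the 13 genes of the pair test, 40 lost the call, of 945 for the 76 genes of reverted cells 188, of 1667 for the 148 genes of primed cells 264, and of 976 for the 86 genes of the interaction 200. Of 2058 counts of list members by direction, 1497 were within 1.5 times the reported count.

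Genes called over the pairs, in reverted cells, in primed cells and by the interaction test numbered 27, 942, 1819 and 899 with edgeR. With limma voom they were 21, 938, 2259 and 1162, and with DESeq2 195, 395, 604 and 418. Without a filter beyond 1 count they were 867, 1803, 2742 and 1843, with at least 10 counts in each library, which leaves fewer genes, 4, 556, 1169 and 666, and thinned to the smallest total, which left 13866 genes tested in place of 14785, 15, 338, 763 and 269. In fits of all 22 libraries, which changed the spread and left 17686 genes tested, the pair test called 626, the primed one 527 and the interaction 233. With the pairs ignored, where the filter by line also left 12292 genes tested, the pair test called 0, and the treatment as a replicate block gave 1563 in reverted cells. Leaving out 1 pair gave 39 to 972 over the pairs, with 12289 genes tested without the primed pair, and leaving out 1 library 476 to 918 in reverted cells, 1794 to 2559 in primed cells and 683 to 1090 for the interaction, where a lone library was assumed to vary like the other group. Library totals without TMM and a fit of autosomal genes alone stayed within 1.5 times for all 4. The cause of these changes was not tested.

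List members called, of 404, were 3 over the pairs, 66 in reverted cells, 137 in primed cells and 75 by interaction. Of all autosomal genes tested, 0.183%, 6.37%, 12.3% and 6.08% were called in this order. The lists were chosen with earlier results of these data known. With DESeq2 the first 3 were 20, 39 and 64. Without a filter they were 91 over pairs, 113 in reverted cells and 118 by interaction. With at least 10 counts in each library all 4 fell to 0, 34, 44 and 31. Thinned counts gave 36 in reverted cells, 72 in primed cells and 31 by interaction. All 22 libraries gave 31 over pairs, 39 in primed cells and 19 by interaction. Without the pair as a block 0 were called, and the treatment block gave 100 in reverted cells. Leaving out 1 pair gave 5 to 69, 69 without the primed, 5 without the AICAR and 16 without the AICAR+LIF pair. Leaving out 1 library gave 39 to 65 in reverted cells, the lowest without the AICAR library of 129/MSM and stayed within 1.5 times in primed cells and by interaction.

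For the AICAR and AICAR+LIF pairs, r was 0.551 with a pseudocount of 2, and rho 0.446 with that pseudocount, 0.441 with at least 10 counts and 0.412 without chromosomes 3, 8 and 15. For primed and AICAR cells, r was 0.109 with at least 10 counts and 0.0707 without these chromosomes, where rho was 0.0641. For primed and AICAR+LIF cells, r was 0.0460 and rho 0.0184 without them, and rho 0.0103 with at least 10 counts. Genes read in 129/MSM only numbered 2 with a floor of 0 counts and 9 with a level of 5 CPM, in place of 4, and those in Oct4GIP only 1 with a floor of 0 counts, in place of 2. Leaving out chromosomes 3, 8 and 15 was chosen after the data were seen.

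Each line was a single line and each condition 1 library, so p-values over pairs measure how the difference varies between states and treatments, not between cultures or between strains. The primed contrast has no replicate of its own. Reads of an F1 line with an MSM/Ms parent were mapped to C57BL/6 transcripts, and the effect of sequence differences on counts was not tested. Strain, sex, transgene, feeders and primed medium cannot be told apart. Levels were not set per length and were compared between libraries only.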

Other observations

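Called members of the naive and p38 lists in primed cells are given here. They were 2 higher and 1 lower of 23 naive regulators, and 3 higher and 2 lower of 17 p38 pathway genes. Over all genes 7.37% were higher and 4.93% lower, and the naive counts were near these shares. Spp1 (osteopontin), a secreted matrix protein on the naive list, had 649 CPM in 129/MSM and 3.8 CPM in Oct4GIP cells (log2 difference 7.40 ± 0.32, edgeR adjusted p = 7.39e-06), although its reverted levels were close, with 485 and 556 against 425 and 503 CPM in 129/MSM and Oct4GIP cells. Tbx3, a naive T-box factor, had 17 counts in primed 129/MSM and 0 in primed Oct4GIP cells, at least 4.85-fold higher (edgeR adjusted p = 0.0139). Fbxo15, an F-box protein of pluripotent cells, had 0.974 CPM in 129/MSM and 6.45 CPM in Oct4GIP cells, a ratio of 6.63-fold with a 95% counting interval of 1.92 to 35.3 (edgeR adjusted p = 0.023). Of the p38 pathway, Mapk12 (p38 gamma) had 32.5 CPM in 129/MSM and 104 CPM in Oct4GIP cells (log2 difference −1.67 ± 0.35, edgeR adjusted p = 0.0168), and Mapkapk3, a kinase downstream of p38, 50.6 against 130.2 CPM (log2 difference −1.36 ± 0.30, edgeR adjusted p = 0.0194). Map2k6, which activates p38, had 11 against 1.14 CPM, the reverse order. Mapk14, the main p38 kinase, had 83.4 CPM in 129/MSM and 69.1 CPM in Oct4GIP cells and did not pass (edgeR adjusted p = 0.479).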
